A study of Homo sapiens with 16 samples.

Results

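The 40 genes described here encode the subunits of the constitutive proteasome, the assembly chaperones that share their naming, and the proteasome activators. They were chosen by symbol alone, as every row of the table named PSMA, PSMB, PSMC, PSMD or PSME followed by digits, without PSMB8, PSMB9 and PSMB10, and they make up 40 of 35993 gene symbols. RNA was sequenced from 4 lines of human bladder cancer cells (TCCSUP, RT112, 253J and J82), each labelled as genotype WT. In each line, cells received CM-1758, a histone deacetylase inhibitor, at the IC50 of that line for 48 h, and control cells received the vehicle, 0.01% DMSO. Each group held 2 libraries, which gave 16 libraries in 8 groups. The methods of the study describe the libraries of a group as independent biological replicates, and every p-value measures the spread between these libraries. 253J, J82 and RT112 were grown in DMEM and TCCSUP in EMEM, so medium and line cannot be told apart when TCCSUP is compared with the other lines. The IC50 differed between lines, so dose and line cannot be told apart when the changes of the lines are compared.

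The proteasome is the large protease that degrades proteins tagged with ubiquitin in the cytosol and the nucleus. Its core particle (20S) is a stack of alpha and beta rings, in which the alpha subunits form the gate and the beta subunits encoded by PSMB5, PSMB6 and PSMB7 cut the substrate. The regulatory particle (19S) caps the core, and its base holds a ring of ATPases that unfolds the substrate while its lid removes ubiquitin. Activators encoded by the PSME genes can bind the core in place of the regulatory particle. In the immunoproteasome, an interferon-induced form of the core, the catalytic subunits are replaced by those of PSMB8, PSMB9 and PSMB10.

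Total counts ranged from 22506431 to 32537104 per library, and levels below are CPM, counts divided by a library total that was scaled by the trimmed mean of M-values (TMM) and brought to a common size. Libraries of treated cells held counts for more genes, 22232 to 24905, than libraries of control cells, 19532 to 20400, and the part of this difference in the results was not tested. The 40 genes took 0.380% to 0.553% of the counts of a control library and 0.400% to 0.532% of those of a treated library. The pair of libraries that differed most was that of the J82 control, whose chi-square divided by its degrees of freedom was 73.1 where the other 7 groups had 11.7 to 49.2, and their summed CPM over the 40 genes were 4987 and 6539. As a check of the label, 11 of 12 urothelial markers reached 1 CPM in RT112 control cells, against 3 in 253J, 2 in J82 and 5 in TCCSUP, and UPK3A was at 0 in the control cells of all 4 lines. Of 8 general epithelial markers, 5 to 8 reached that level in each line. Of 6 mesenchymal markers, 5, 6, 4 and 6 reached it in control cells of 253J, J82, RT112 and TCCSUP. Among control libraries, their summed level exceeded that of the epithelial markers in TCCSUP alone, at 6791 and 6192 CPM against 1227 and 1357 CPM. Of 6 leukocyte markers CD68 reached it in the control cells of each line and PTPRC in those of TCCSUP, and the summed level of the 6 was at most 68.4 CPM in any library.

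With CM-1758, more of the proteasome subunit genes were called lower than higher in each line under TMM scaling, a balance that turned in 253J with library size as the scaling. Of 39 tested genes, 13 were lower and 4 higher in 253J, 15 lower and 0 higher in J82, 11 lower and 3 higher in RT112, and 17 lower and 4 higher in TCCSUP, or 3 higher without PSMA8 (edgeR quasi-likelihood test, Benjamini-Hochberg adjusted p under 0.05 over all 21297 tested genes). Over all tested genes, 22.4%, 18.5%, 20.2% and 22.1% were called lower in 253J, J82, RT112 and TCCSUP, and 28.8%, 24%, 27.4% and 32% were called higher. The subunit genes are abundant, and 38 of them lay above the median level of the tested genes. Among the genes above that median, 35.3%, 30.9%, 33.2% and 35.8% were called lower, so the shares of subunit genes called lower, 33.3%, 38.5%, 28.2% and 43.6%, lay near this background. The shares of those genes called higher were 29.2%, 22.4%, 22.7% and 23.7%, and the shares of subunit genes called higher were 10.3%, 0%, 7.69% and 10.3%. The TCCSUP share still takes in PSMA8, which rests on few counts. Beside the count of 0 higher by edgeR in J82, 1 gene, PSMD13, was higher there at an unadjusted p under 0.05, and DESeq2 called 1. Read by whether the libraries of a line overlap, 17 subunit genes lay lower and 9 higher without overlap in 253J and 19 and 1 in J82. In RT112 they were 24 and 6, and in TCCSUP 24 and 7. These are 43.6%, 48.7%, 61.5% and 61.5% lower and 23.1%, 2.56%, 15.4% and 17.9% higher. Of all tested genes, 32.1%, 27.9%, 32.5% and 33.1% lay lower and 40.9%, 34.8%, 41.8% and 45.4% higher. The shares among genes above the median level were not taken, so no excess of lower genes is read from these counts. The changes were small: at an adjusted p under 0.01 with a log2 fold change past 2, the subunit genes called were 1 lower in 253J, PSMD5, and 0 in either direction in the other lines by edgeR. Of all tested genes, 3.5%, 1.24%, 1.39% and 3.31% were lower and 9.43%, 8.81%, 11.4% and 14.2% higher by that rule. In bulk RNA, fewer cells with a transcript and less of it per cell cannot be told apart.

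In the order 253J, J82, RT112 and TCCSUP, the subunit genes had median log2 fold changes of −0.17, −0.30, −0.24 and −0.35, against 0.10, 0.05, 0.12 and 0.20 for all tested genes and −0.07, −0.11, −0.12 and −0.14 for those above the median level. Without PSMA8, and without PSMD5 in 253J, which rest on few counts, the medians were −0.17, −0.30, −0.25 and −0.36. With library size in place of TMM, the median of all genes became 0.37, 0.19, 0.27 and 0.51, and the medians of the subunit genes became 0.10, −0.14, −0.09 and −0.04. The calls were then 9 lower and 10 higher in 253J, 12 and 1 in J82, 6 and 5 in RT112, and 11 and 9 in TCCSUP. Relative to the median of all tested genes, the subunit genes stood at −0.27, −0.34, −0.36 and −0.55 under TMM. With library size these values had to stay nearly the same, since a change of scaling shifts all genes of a line nearly alike. They were −0.27, −0.34, −0.36 and −0.55, which is no separate result. With at least 10 counts asked of every library, the difference from the median of all tested genes was −0.097, −0.18, −0.13 and −0.25. Without any filter on low counts it was −0.16, −0.27, −0.25 and −0.48. It was −0.091, −0.46 and −0.14 in 253J without control replicate 2, control replicate 3 and CM-1758 replicate 3, −0.56 and −0.11 in J82 without control replicate 1 and control replicate 3, and −0.23 in RT112 without CM-1758 replicate 2.

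Single libraries moved several of these values. The median was 0.0020 in 253J without 253J control replicate 2 and −0.059 in J82 without J82 control replicate 3. The 253J count of higher genes was 2 without 253J control replicate 3. The RT112 count of lower genes was 5 without RT112 control replicate 1, 7 without RT112 control replicate 2 and 5 without either treated library, and its count of higher genes was 0 without control replicate 1 and 1 without either treated library. The TCCSUP count of lower genes was 11 without TCCSUP control replicate 2 and 11 without TCCSUP CM-1758 replicate 2. The TCCSUP count of higher genes was 1, 2 and 0 without control replicate 1, control replicate 2 and CM-1758 replicate 1, in that order.

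**Figure D1:**
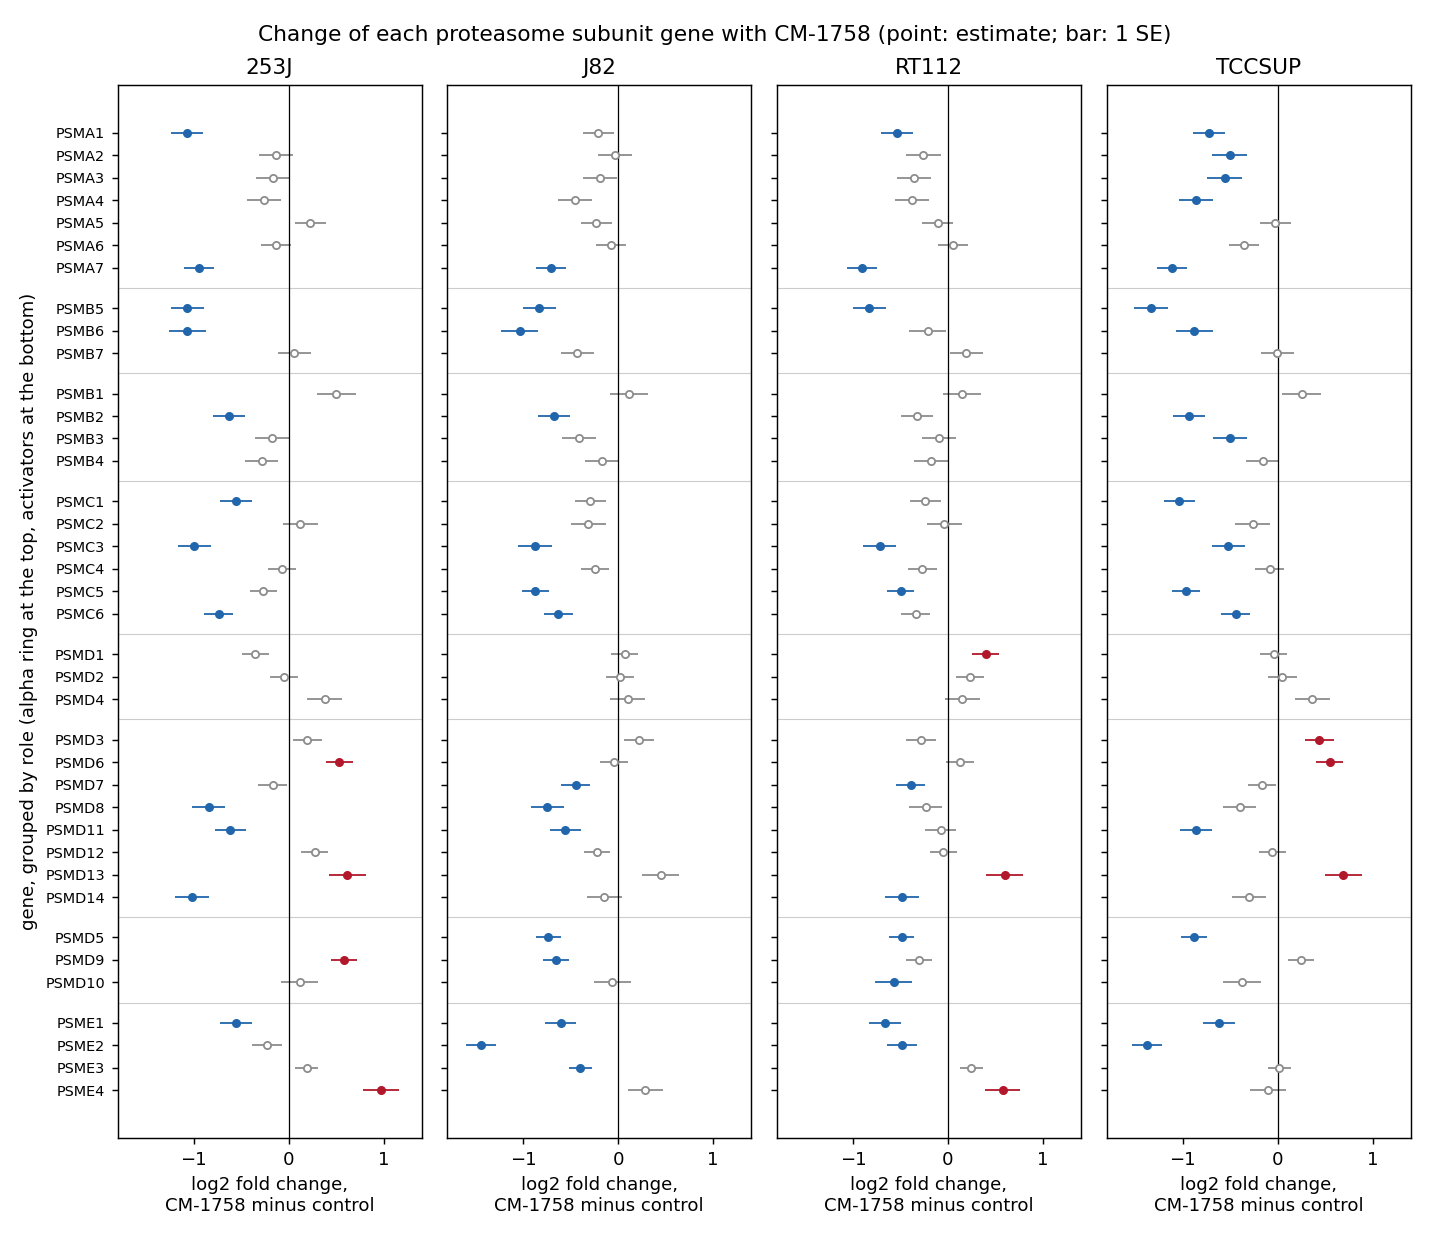
Log2 fold change (CM-1758 minus control, TMM scaling) of 38 proteasome subunit genes on the x axis, with 1 panel for each cell line and genes in rows grouped by role. Blue points were called lower and red points higher, open grey points were not called, and bars are 1 standard error; PSMA8, PSMB11 and the 253J value of PSMD5 are left out for low counts. The TCCSUP panel shows 17 blue and 3 red points, while with library size as the scaling the 253J calls were 9 lower and 10 higher.

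Averaged over the lines, 20 of the 39 genes were lower and 5 higher, where 25% of all tested genes were lower and 36.9% higher, and 42.5% and 32.7% of those above the median level. The average of PSMD5 takes in 253J, where its counts were near 0. The number of higher genes became 3 when any of 7 libraries was left out, namely 253J control replicate 3, 253J CM-1758 replicate 1, J82 control replicate 1, J82 CM-1758 replicate 3, RT112 control replicate 2, RT112 CM-1758 replicate 1 or TCCSUP CM-1758 replicate 1. PSMA7, PSMB5, PSMC3, PSMD5 and PSME1 were called lower in all 4 lines, 5 of 39 where 6.01% of all tested genes were. For PSMD5 the 253J call rests on 5 and 3 counts in control and 0 in treated libraries, near the limit of detection. The share among genes above the median level was not taken. By edgeR 0 subunit genes were higher in all 4 lines, where 6.69% of all tested genes were, and 1, PSMD13, was so at an unadjusted p under 0.05. In all, 22 genes, these 5 among them, were lower in at least 1 line and higher in none, and 6, or 5 without PSMA8, were higher in at least 1 line and lower in none. PSMD9 alone was called in opposite directions, and 10 genes were called in no line. Across the 37 genes left without PSMA8 and PSMD5, the log2 fold changes of any pair of lines had a Pearson correlation of 0.589 to 0.730. All 21297 tested genes gave 0.391 to 0.531, and those above the median level 0.379 to 0.583. This is a description across genes, which are not independent replicates, and the fold changes of a line share its libraries.

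Among the alpha ring genes, PSMA7 was lower in every line and PSMA1 in 253J, RT112 and TCCSUP. PSMA7 encodes a subunit of the outer ring that forms the gate of the core. Its level was 374 and 317 CPM in 253J control libraries and 195 and 164 CPM in treated libraries, and 334 and 446 CPM against 232 and 247 CPM in J82. In RT112 it was 390.3 and 369 CPM in control and 218 and 189 CPM in treated libraries, and in TCCSUP 311 and 319.7 CPM against 149 and 143 CPM. Control and treated libraries did not overlap in any line. The log2 fold changes were −0.94 (SE 0.16), −0.70 (SE 0.16), −0.90 (SE 0.16) and −1.11 (SE 0.16), with adjusted p of 0.000153, 0.00218, 0.000298 and 3.9e-05, and the J82 call was lost when each line was fitted alone. PSMA7 had the lowest log2 fold change of the called subunit genes in RT112.

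PSMA1, another alpha subunit, was at 243 and 204 CPM in 253J control and at 112 and 101 CPM in treated libraries, a log2 fold change of −1.07 (SE 0.17, adjusted p = 9.26e-05). In J82 its control libraries, 236 and 352 CPM, and its treated libraries, 235 and 273 CPM, overlapped, with a log2 fold change of −0.21 (SE 0.17, adjusted p = 0.345). It was lower in RT112, by 0.54 on the log2 scale, and fell by 0.72 in TCCSUP, and the RT112 call was lost without any 1 of the 4 RT112 libraries, with log2 fold changes of −0.55 to −0.53. PSMA2, PSMA3 and PSMA4 were called lower in TCCSUP alone, at −0.51, −0.56 and −0.86, and their interaction tests did not pass the threshold. The PSMA2 call was lost without any 1 of the 4 TCCSUP libraries (−0.60 to −0.42), and the PSMA3 call without TCCSUP control replicate 2 (−0.50) or CM-1758 replicate 2 (−0.49). Both were lost with library size as the scaling (−0.19 and −0.25). PSMA5 and PSMA6 were called in no line, with log2 fold changes from −0.35 to 0.23.

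PSMA8, a testis form of an alpha subunit, had 0 counts in all 8 control libraries and 11 and 11 counts in the TCCSUP treated libraries, which puts it at least 3.62-fold higher there against a limit of 3 counts for each library. It passed the filter on low counts through that group alone, so its test was decided by the filter and is not read. In the other lines it had at most 3 counts in a library. PSMB11, the beta subunit of the thymus proteasome, had at most 2 counts in any library and was not tested.

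The catalytic beta genes did not move alike. PSMB5, which encodes the chymotrypsin-like subunit and the main target of bortezomib, was lower in every line, PSMB6, the caspase-like subunit, was lower in 253J, J82 and TCCSUP, and PSMB7, the trypsin-like subunit, was called in no line. The promoter of PSMB5 (chr14:23035171-23035470, minus strand, GRCh38.p14, from 250 bases before to 50 after the RefSeq start) is shown because this gene fell in all 4 lines and kept every call under all 24 alternatives. Capitals mark the letters CCAAT on either strand.
PSMB5: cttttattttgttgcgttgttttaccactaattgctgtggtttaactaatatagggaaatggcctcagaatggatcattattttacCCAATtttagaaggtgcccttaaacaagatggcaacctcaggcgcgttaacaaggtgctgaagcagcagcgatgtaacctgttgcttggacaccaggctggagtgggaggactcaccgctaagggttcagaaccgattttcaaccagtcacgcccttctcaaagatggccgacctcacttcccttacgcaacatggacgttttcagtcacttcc

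PSMB5 stood at 140.5 and 119.8 CPM in 253J control libraries and at 70.5 and 53.8 CPM in treated libraries. In J82 it was 89.4 and 126 CPM against 59.1 and 62.1 CPM, and in RT112 107 and 98.3 CPM against 61.6 and 54.0 CPM. In TCCSUP it was 76.0 and 86.1 CPM against 30.6 and 33.7 CPM. All treated libraries lay below all control libraries of their line. On the log2 scale the changes were −1.07, −0.83, −0.83 and −1.33 (SE 0.18 in each line), with edgeR adjusted p of 0.000127, 0.00139, 0.0013 and 2.02e-05, or a level that fell by 52.3%, 43.8%, 43.7% and 60.3% in the same order.

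PSMB6 was at 137 and 109 CPM in 253J control and 69.4 and 48.4 CPM in treated libraries, and at 71.4 and 102 CPM against 39.9 and 44.7 CPM in J82. In TCCSUP it was at 48.3 and 56.0 CPM against 29.0 and 27.8 CPM. In RT112, the line with the lowest control level, it was at 40.3 and 40.0 CPM against 36.2 and 33.1 CPM. In log2 fold change this was −1.07 (SE 0.19, adjusted p = 0.000281) in 253J, −1.04 (SE 0.19, adjusted p = 0.000529) in J82, −0.88 (SE 0.19, adjusted p = 0.00152) in TCCSUP and −0.21 (SE 0.19, adjusted p = 0.388) in RT112. The RT112 change differed from that of 253J by 0.85 (SE 0.27, adjusted p = 0.0271) and from that of J82 by 0.83 (SE 0.27, adjusted p = 0.0406). PSMB6 thus fell by about the same factor as PSMB5 in 253J and was not called in RT112, where PSMB5 was.

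PSMB7 was at 203 and 156 CPM in 253J control and 204 and 169.9 CPM in treated libraries, which overlap. It was at 213 and 289 CPM against 168 and 205 CPM in J82, 88.4 and 84.6 CPM against 102 and 95.3 CPM in RT112, and 112 and 116 CPM against 111 and 117 CPM in TCCSUP. As log2 fold changes these were 0.06, −0.43, 0.19 and 0.00 (SE 0.17 in each line), and the lowest adjusted p was 0.0547, in J82. Among the other beta genes, PSMB2 was lower in 253J, J82 and TCCSUP (−0.63, −0.68 and −0.93) and PSMB3 in TCCSUP (−0.50), while PSMB1 and PSMB4 were called in no line. The 253J call of PSMB2 was lost without 253J control replicate 2 (−0.42) or CM-1758 replicate 3 (−0.51), and the call of PSMB3 without TCCSUP control replicate 2 (−0.37), CM-1758 replicate 1 (−0.52) or CM-1758 replicate 2 (−0.47). With library size as the scaling both were lost (−0.35 and −0.19). PSMB1 averaged 0.25 (SE 0.10, adjusted p = 0.0399) over the lines.

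**Figure D2:**
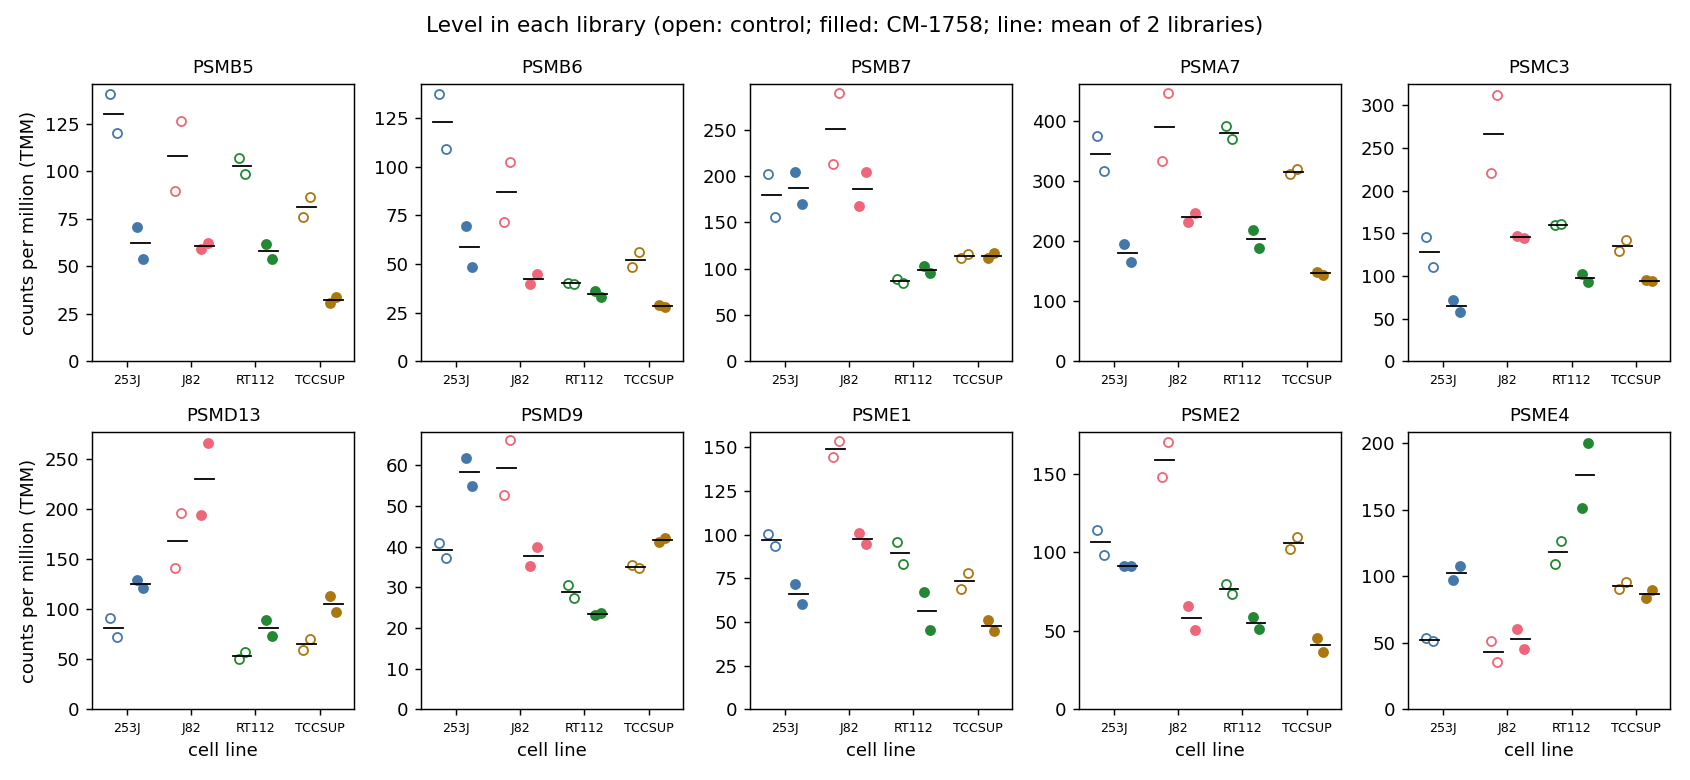
Level in CPM (y axis, TMM scaling, from 0) of 10 genes in each library of the 4 cell lines (x axis), with open points for control, filled points for CM-1758 and a line at the mean of 2 libraries. PSMB5, PSMA7, PSMC3 and PSME1 are lower in all treated libraries than in the control libraries of their line, PSMB7 overlaps in 253J and TCCSUP, and PSMD13 is higher without overlap in 253J, RT112 and TCCSUP.

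The immunoproteasome genes, which are not part of the set, are given beside their constitutive partners. PSMB8, the partner of PSMB5, was lower in each line, with log2 fold changes from −2.37 to −2.15, and PSMB10, the partner of PSMB7, was lower in each line, from −4.16 to −2.10. PSMB9, the partner of PSMB6, was lower in 253J (−0.96), J82 (−1.56) and TCCSUP (−2.20) and higher in RT112 (0.68). In RT112 PSMB9 had a mean of 3.28 CPM in control and 5.25 CPM in treated libraries, and this call (adjusted p = 0.0325) was lost without RT112 control replicate 2 (0.42), CM-1758 replicate 1 (0.69) or CM-1758 replicate 2 (0.66). So PSMB10 fell in lines in which PSMB7 was not called.

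**Figure D3:**
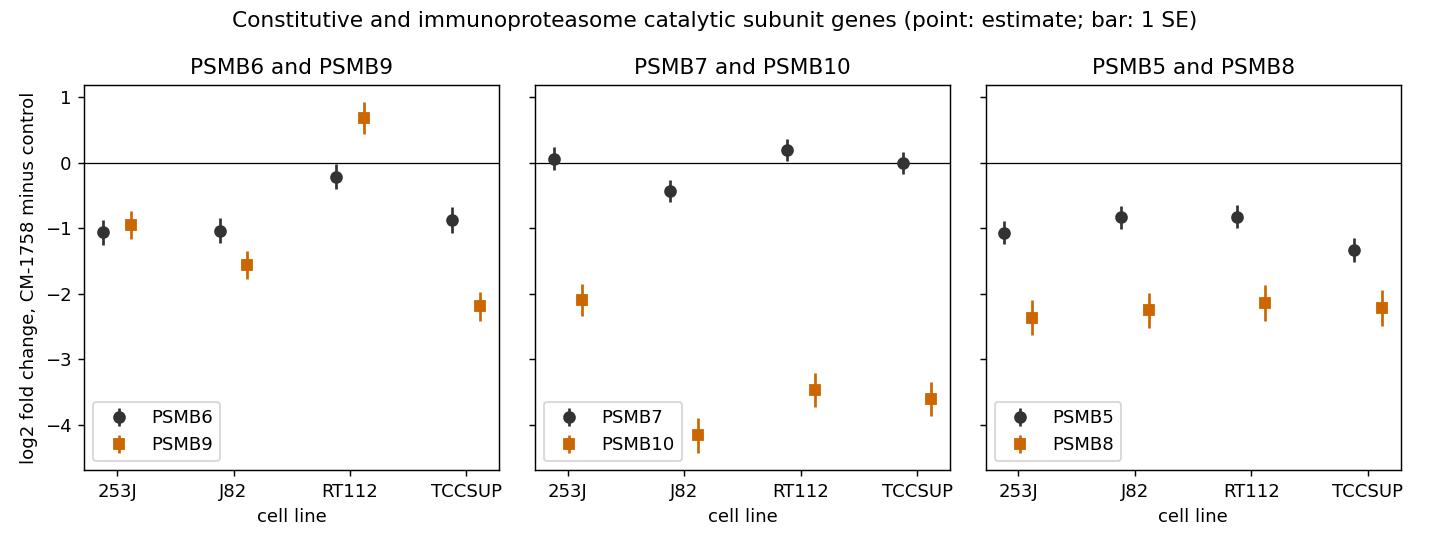
Log2 fold change (CM-1758 minus control, y axis, TMM scaling) in each cell line (x axis) of the constitutive catalytic genes (circles) and their immunoproteasome partners (squares), with bars of 1 standard error. PSMB8 and PSMB10 lie between −4.16 and −2.10 in the 4 lines, while PSMB7 lies between −0.43 and 0.19.

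In the base of the regulatory particle, the ATPase genes were called lower or not called, and none was called higher by edgeR. Of these 6 genes, 4 were lower in TCCSUP, 3 in 253J, 3 in J82 and 2 in RT112, or 66.7%, 50%, 50% and 33.3%. Among the tested genes above the median level, 35.8%, 35.3%, 30.9% and 33.2% were lower in the same order. PSMC3, one of the ATPases of the ring, was lower in every line. It stood at 146 and 111 CPM in 253J control and 71.6 and 57.6 CPM in treated libraries, and at 221 and 313 CPM against 147 and 144 CPM in J82. It stood at 159 and 161 CPM against 102 and 92.6 CPM in RT112, and at 129 and 142 CPM against 95.3 and 94.0 CPM in TCCSUP. No treated library reached a control library of its line. The log2 fold changes were −0.99 (SE 0.18), −0.88 (SE 0.17), −0.72 (SE 0.17) and −0.52 (SE 0.17), with adjusted p of 0.000252, 0.000935, 0.00356 and 0.0206. The TCCSUP call was lost with library size as the scaling (−0.21), with at least 10 counts asked of every library (−0.37), and without TCCSUP control replicate 2 (−0.45), CM-1758 replicate 1 (−0.53) or CM-1758 replicate 2 (−0.51).

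Other ATPase genes moved in some lines. PSMC5 was lower in J82, RT112 and TCCSUP (−0.87, −0.50 and −0.96) and stood at −0.27 in 253J, and PSMC6 was lower in 253J, J82 and TCCSUP (−0.74, −0.63 and −0.44). PSMC1 was lower in TCCSUP, at 114 and 119.8 CPM in control and 57.9 and 56.3 CPM in treated libraries (log2 fold change −1.03, SE 0.17, adjusted p = 0.000112), and in 253J at −0.56. In RT112 and J82 PSMC1 stood at −0.24 and −0.30 and was not called. PSMC2 and PSMC4 were called in no line. Of these calls, PSMC5 in RT112 was lost without RT112 control replicate 2 (−0.43) or CM-1758 replicate 1 (−0.39), PSMC1 in 253J without 253J control replicate 2 (−0.34) or CM-1758 replicate 3 (−0.54), PSMC6 in J82 without J82 control replicate 3 (−0.42), and PSMC6 in TCCSUP without TCCSUP control replicate 2 (−0.41) or CM-1758 replicate 2 (−0.33). With library size as the scaling, PSMC5 in RT112 (−0.35), PSMC1 in 253J (−0.28) and PSMC6 in TCCSUP (−0.13) were not called. The base also holds larger proteins without ATPase activity, which dock ubiquitin and its receptors. PSMD1 was higher in RT112 (0.40) and not called elsewhere, and its RT112 call was lost without any 1 of the 4 RT112 libraries, with values of 0.34 to 0.45. PSMD2 and the ubiquitin receptor gene PSMD4 were called in no line, with log2 fold changes from −0.04 to 0.38. PSMD4 averaged 0.25 (SE 0.09, adjusted p = 0.0272) over the lines.

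The lid genes went in both directions within the same libraries. Of 8 genes, 3 were lower and 2 higher in 253J, and 3 lower and 0 higher in J82. In RT112 2 were lower and 1 higher, and in TCCSUP 1 was lower and 3 higher. The lower shares were 37.5%, 37.5%, 25% and 12.5%, beside 35.3%, 30.9%, 33.2% and 35.8% of the tested genes above the median level. The higher shares were 25%, 0%, 12.5% and 37.5%, beside 29.2%, 22.4%, 22.7% and 23.7% of those genes. Beside the 0 of J82, PSMD13 was higher there at an unadjusted p under 0.05. PSMD13, a scaffold subunit of the lid, was higher in 253J, RT112 and TCCSUP and had the highest log2 fold change of the called subunit genes in RT112 and, at levels above 1 CPM, in TCCSUP. Its promoter (chr11:236726-237025, plus strand, GRCh38.p14, the same window from RefSeq) is printed for comparison with that of PSMB5, since the genes moved in opposite directions. Capitals mark the letters CCGGAAG on either strand, and CCAAT was not found in this window.
PSMD13: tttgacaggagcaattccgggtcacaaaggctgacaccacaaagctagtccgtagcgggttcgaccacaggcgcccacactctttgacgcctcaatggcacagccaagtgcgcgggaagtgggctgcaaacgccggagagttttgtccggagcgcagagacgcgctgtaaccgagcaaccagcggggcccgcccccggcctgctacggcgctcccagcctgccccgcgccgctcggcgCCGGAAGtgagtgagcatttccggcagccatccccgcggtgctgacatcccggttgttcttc

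PSMD13 was at 91.5 and 71.8 CPM in 253J control and 129 and 122 CPM in treated libraries, 50.2 and 56.9 CPM against 89.1 and 73.0 CPM in RT112, and 59.4 and 70.6 CPM against 113 and 97.5 CPM in TCCSUP. In J82 its control libraries, 141 and 196 CPM, and its treated libraries, 194 and 266 CPM, overlapped. On the log2 scale the changes were 0.62 (SE 0.20, adjusted p = 0.0161) in 253J, 0.45 (SE 0.20, adjusted p = 0.0778) in J82, 0.60 (SE 0.20, adjusted p = 0.0215) in RT112 and 0.69 (SE 0.20, adjusted p = 0.00818) in TCCSUP. These calls were lost in 253J without control replicate 3 (0.45) or CM-1758 replicate 1 (0.57), in RT112 without control replicate 1 (0.51) or CM-1758 replicate 1 (0.45), and in TCCSUP without control replicate 1 (0.54) or CM-1758 replicate 1 (0.58).

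PSMD14, the deubiquitinating enzyme of the lid, was at 195 and 149.8 CPM in 253J control and 92.6 and 78.0 CPM in treated libraries, a log2 fold change of −1.02 (SE 0.18, adjusted p = 0.000275). In J82 its control libraries, 118 and 178 CPM, spanned the treated ones, 127 and 140.4 CPM. It was also lower in RT112 (−0.48, SE 0.18, adjusted p = 0.0396), a call that held in 12 of 24 alternatives and was lost without any 1 of the 4 RT112 libraries (−0.51 to −0.46). PSMD8 was lower in 253J (−0.84) and J82 (−0.75), PSMD11 in 253J, J82 and TCCSUP (−0.61, −0.56 and −0.86), and PSMD7 in J82 and RT112 (−0.45 and −0.39). PSMD6 was higher in 253J and TCCSUP (0.54 and 0.55), and PSMD3 in TCCSUP (0.44). PSMD12 was called in no line. The PSMD6 calls were lost without 253J control replicate 3 (0.44) and without TCCSUP CM-1758 replicate 1 (0.44), and the PSMD3 call without TCCSUP control replicate 1 (0.38), control replicate 2 (0.47) or CM-1758 replicate 1 (0.26). The PSMD11 calls were lost in 253J without control replicate 2 (−0.49) or CM-1758 replicate 3 (−0.49) and in J82 without control replicate 3 (−0.50) or CM-1758 replicate 3 (−0.44), in both lines with library size as the scaling (−0.34 and −0.41), and in J82 when fitted alone (−0.57). The PSMD7 call in J82 was lost without J82 control replicate 3 (−0.24), J82 CM-1758 replicate 1 (−0.29) or TCCSUP control replicate 1 (−0.38), with RLE scaling (−0.36), library size (−0.30) or at least 10 counts in every library (−0.34), and when J82 was fitted alone (−0.47), and that in RT112 was lost in 16 of 24 alternatives.

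Since the scaling of the libraries moves every gene of a library alike, the balance of the regulatory particle and the core was also taken within each library, as the ratio of the summed CPM of 17 genes of base and lid to the summed CPM of 14 genes of the core. The ratio depends on gene lengths, so only its change between libraries is read. In 253J it was 1.21 and 1.20 in control and 1.35 and 1.39 in treated libraries, and in J82 1.07 and 0.976 against 1.17 and 1.10. In RT112 it was 1.12 and 1.19 against 1.35 and 1.39, and in TCCSUP 0.984 and 1.01 against 1.30 and 1.29. In every line both treated libraries lay above both control libraries. An exact permutation test of 2 libraries against 2 cannot reach a p under 0.05, and none is given. The summed core level fell short of control by 21.1%, 20.9%, 19.8% and 27.1% in the means of 253J, J82, RT112 and TCCSUP, and the summed base and lid level by 10.2%, 12%, 4.46% and 5.28%, both on the TMM scale. The core sums of control and treated libraries overlapped in J82, and the base and lid sums overlapped in all 4 lines.

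The same balance with equal weight for each gene, the mean log2 CPM of the 17 genes minus that of the 14, was higher by 0.16, 0.11, 0.15 and 0.37 in treated cells of the 4 lines. In J82 its libraries overlapped, at −0.18 and −0.32 in control and −0.08 and −0.20 in treated cells. Without PSMD2, the ratio of the sums was still higher in all treated libraries of each line, by factors of 1.11, 1.08, 1.15 and 1.28 in the means. Both variants were chosen after the data were seen. No variant left out a core gene such as PSMA7, which was lower in every line. In J82 PSMA7 was at 334 and 446 CPM in control and 232 and 247 CPM in treated libraries. The core sums there were 2132 and 2989 CPM against 1855 and 2197 CPM. The separation of the J82 libraries is therefore not shown to hold without that gene. How far it rests on PSMA7 in the other lines was not tested.

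**Figure D4:**
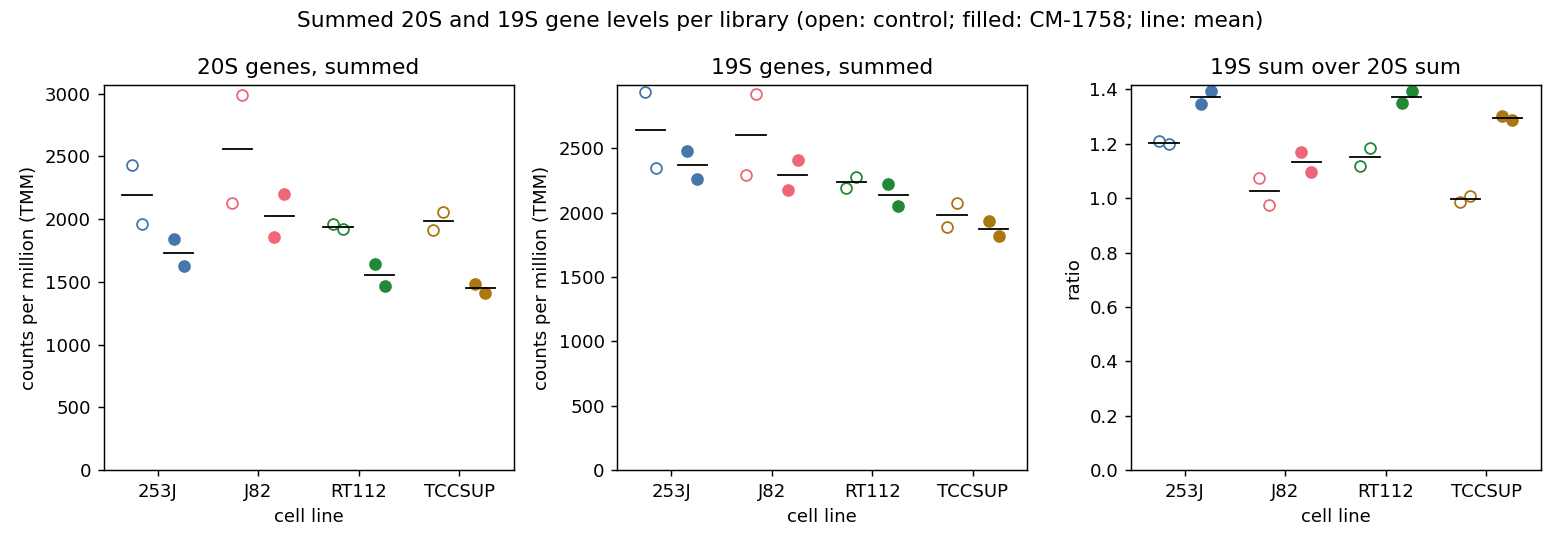
Summed level of the 14 core genes and the 17 base and lid genes in CPM (TMM scaling), and the ratio of the sums, in each library of the 4 cell lines (x axis), with open points for control, filled points for CM-1758 and a line at the mean of 2 libraries. The ratio is between 0.976 and 1.21 in control and between 1.10 and 1.39 in treated libraries and does not overlap within a line.

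The chaperones that assemble the base split by gene and line. PSMD9 had the smallest p of the test of a difference between lines. It was at 40.9 and 37.3 CPM in 253J control and 61.9 and 55.0 CPM in treated libraries, and at 52.8 and 66.1 CPM against 35.4 and 40.0 CPM in J82. It was at 30.5 and 27.4 CPM against 23.2 and 23.8 CPM in RT112, and at 35.4 and 34.7 CPM against 41.1 and 42.2 CPM in TCCSUP. The groups did not overlap in any line, with treated cells higher in 253J and TCCSUP and lower in J82 and RT112. As log2 fold changes these were 0.58 (SE 0.14, adjusted p = 0.00236), −0.66 (SE 0.14, adjusted p = 0.00125), −0.30 (SE 0.14, adjusted p = 0.0867) and 0.25 (SE 0.14, adjusted p = 0.141). Of all tested genes, 12.9% were called in opposite directions in 2 lines. The 253J and J82 calls of PSMD9 held in all 24 alternatives. PSMD10, also known as gankyrin, was lower in RT112 (−0.57, adjusted p = 0.0255), a call lost without RT112 control replicate 1 (−0.45), CM-1758 replicate 1 (−0.62) or CM-1758 replicate 2 (−0.53) and with library size as the scaling (−0.42), and pseudogene rows held counts of up to 5.88% of its own.

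PSMD5, the third of these chaperones, was lower in J82, RT112 and TCCSUP and was almost without counts in 253J. In J82 it was at 66.2 and 78.3 CPM in control and 41.5 and 45.2 CPM in treated libraries, in RT112 at 40.5 and 42.0 CPM against 28.4 and 30.5 CPM, and in TCCSUP at 32.0 and 31.5 CPM against 16.7 and 17.9 CPM. In log2 fold change this was −0.74 (SE 0.13), −0.49 (SE 0.13) and −0.88 (SE 0.14), with adjusted p of 0.000478, 0.00791 and 0.000101, and the RT112 call was lost without RT112 CM-1758 replicate 1 (−0.44). The changes of these 3 lines did not differ by more than their error, with adjusted p of at least 0.15 for each pair.

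In 253J, PSMD5 had 5 and 3 counts in control and 0 and 0 in treated libraries. Control replicate 3, with 3 counts, was itself at the limit of detection, so no lowest fold is given. The 253J call of PSMD5 was lost when each line was fitted alone. The next counted gene in RefSeq order on 1 side, the pseudogene CUTALP, was at 0 counts in each of the 4 libraries of 253J and at 25.3 to 55.1 CPM in control libraries of the other lines. The nearest counted gene on the other side, FBXW2, was at 61.6 and 65.9 CPM in 253J control libraries, and PHF19, next after CUTALP, was at 62.1 and 54.0 CPM. So low counts in 253J covered PSMD5 and CUTALP and not the genes that flank them.

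**Figure D5:**
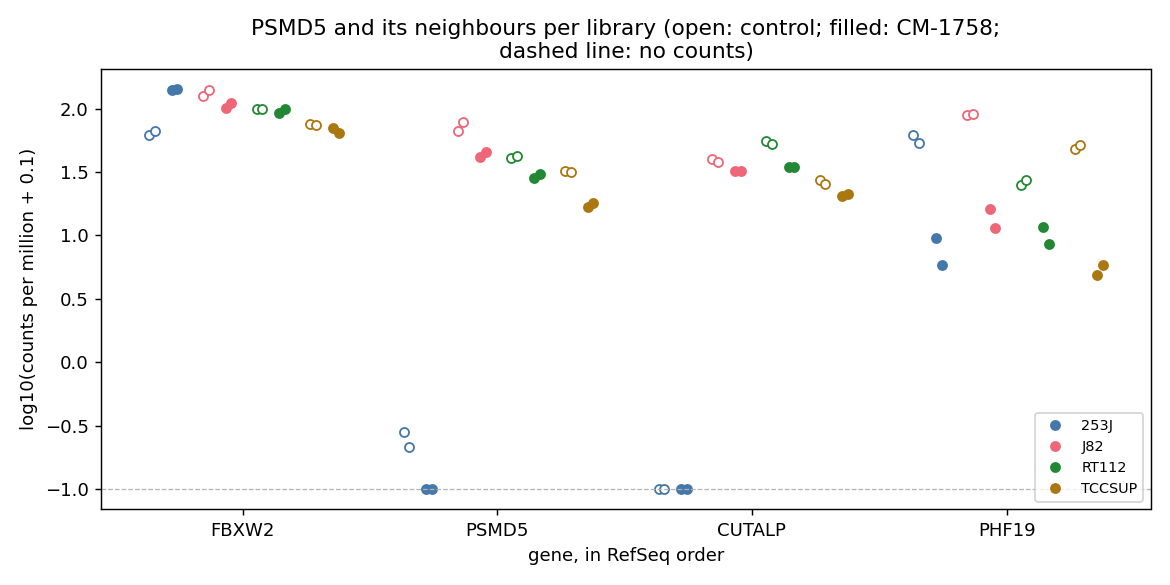
Level of PSMD5 and 3 neighbouring genes in RefSeq order (x axis) as log10 of CPM plus 0.1 (y axis), in each library, coloured by cell line, with open points for control and filled points for CM-1758; the dashed line marks 0 counts. In 253J, PSMD5 is at or near the dashed line and CUTALP on it, while FBXW2 and PHF19 are not.

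The activator genes moved in both directions. PSME1 and PSME2 encode the alpha and beta chains of PA28, an interferon-induced activator linked to antigen processing, PSME3 its nuclear gamma relative, and PSME4 the activator PA200. PSME1 was lower in every line, PSME2 in J82, RT112 and TCCSUP, PSME3 in J82, and PSME4 was higher in 253J and RT112. The promoters of PSME1 (chr14:24135944-24136243, plus strand) and PSME2 (chr14:24146561-24146860, minus strand), from RefSeq on GRCh38.p14, are shown because the chains form 1 complex. Capitals mark the letters TGACNNNGC and the core of the interferon-stimulated response element (GAAA, 2 free bases, GAAA) on either strand, and each promoter holds both.
PSME1: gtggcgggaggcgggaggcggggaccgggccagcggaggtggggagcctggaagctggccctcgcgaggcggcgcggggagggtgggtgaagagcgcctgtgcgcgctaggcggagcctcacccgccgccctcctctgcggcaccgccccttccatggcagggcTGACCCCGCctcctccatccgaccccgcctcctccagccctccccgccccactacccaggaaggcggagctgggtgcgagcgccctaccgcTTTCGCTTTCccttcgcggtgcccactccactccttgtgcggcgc
PSME2: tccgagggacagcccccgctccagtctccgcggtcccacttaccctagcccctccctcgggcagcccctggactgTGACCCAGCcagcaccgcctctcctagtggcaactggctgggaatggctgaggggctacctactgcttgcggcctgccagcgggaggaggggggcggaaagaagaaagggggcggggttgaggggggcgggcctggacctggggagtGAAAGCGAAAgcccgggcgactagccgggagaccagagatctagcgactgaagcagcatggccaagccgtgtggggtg

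PSME1 was at 100.3 and 93.8 CPM in 253J control and 71.7 and 60.5 CPM in treated libraries, at 145 and 154 CPM against 101 and 94.6 CPM in J82, at 95.8 and 83.1 CPM against 67.4 and 45.6 CPM in RT112, and at 69.2 and 77.9 CPM against 51.1 and 45.0 CPM in TCCSUP. Its log2 fold changes were −0.56, −0.61, −0.66 and −0.61 (SE 0.17 in each line), with adjusted p of 0.0123, 0.00863, 0.00477 and 0.00678, the narrowest range over lines among the subunit genes, 0.11. The calls in 253J and TCCSUP were lost with library size as the scaling (−0.28 and −0.30). Calls of PSME1 were also lost in 253J without control replicate 2 (−0.51) or CM-1758 replicate 3 (−0.44), in J82 without CM-1758 replicate 3 (−0.56) or when fitted alone (−0.62), in RT112 without control replicate 1 (−0.56) or CM-1758 replicate 2 (−0.41), and in TCCSUP without control replicate 2 (−0.53) or CM-1758 replicate 2 (−0.52).

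PSME2 was at 148 and 170.3 CPM in J82 control and 66.2 and 50.8 CPM in treated libraries, and at 102 and 109.7 CPM against 45.4 and 36.3 CPM in TCCSUP. In RT112 it was at 79.9 and 73.2 CPM against 58.6 and 51.0 CPM, and in 253J at 115 and 98.7 CPM against 91.4 and 91.1 CPM. It had the lowest log2 fold change of the called subunit genes in J82, −1.44 (SE 0.16, adjusted p = 6.05e-06), and in TCCSUP, −1.38 (SE 0.16, adjusted p = 5.73e-06). In RT112 it was −0.48 (SE 0.16, adjusted p = 0.0209), a call lost with library size as the scaling (−0.33), with at least 10 counts asked of every library (−0.35), and without RT112 control replicate 1 (−0.42) or CM-1758 replicate 2 (−0.38). In 253J it was −0.22 (SE 0.16, adjusted p = 0.253). The 253J change differed from that of J82 by 1.22 (SE 0.22, adjusted p = 0.00075) and from that of TCCSUP by 1.15 (SE 0.22, adjusted p = 0.00128).

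PSME4 was at 53.3 and 51.4 CPM in 253J control and 97.4 and 108 CPM in treated libraries, a log2 fold change of 0.97 (SE 0.19, adjusted p = 0.000489), the highest of the called subunit genes in that line. In RT112 it was at 109 and 127 CPM against 152 and 200.4 CPM (0.58, SE 0.18, adjusted p = 0.018), a call lost without RT112 control replicate 1 (0.47) or CM-1758 replicate 2 (0.36). In J82 the libraries overlapped, at 51.1 and 35.5 CPM against 60.1 and 45.4 CPM, and in TCCSUP they were at 90.6 and 95.4 CPM against 84.0 and 89.4 CPM, with log2 fold changes of 0.28 and −0.10. PSME3 was at 60.4 and 62.4 CPM against 46.7 and 46.2 CPM in J82 (−0.40, SE 0.12, adjusted p = 0.0139), which no other line shared, with values of 0.19 in 253J, 0.25 in RT112 and 0.02 in TCCSUP. The J82 call of PSME3 was lost without CM-1758 replicate 1 (−0.33) or CM-1758 replicate 3 (−0.39), with library size as the scaling (−0.26), and when J82 was fitted alone (−0.42).

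The effect of CM-1758 differed between lines for 12 of the 39 genes, or 30.8%, by the interaction test of edgeR, where 51.9% of all tested genes and 68% of those above the median level differed. These were PSMA1, PSMB6, PSMC1, PSMC5, PSMD1, PSMD5, PSMD6, PSMD9, PSMD14, PSME2, PSME3 and PSME4. For PSMD5 the differing line was 253J, where its counts were near 0. PSMD9 and PSME2 had the smallest adjusted p, 0.000366 and 0.000482, and passed in every alternative, with adjusted p of at most 0.00203 and 0.0027. The count was 7 without 253J control replicate 2, 253J CM-1758 replicate 1, RT112 CM-1758 replicate 2 or TCCSUP CM-1758 replicate 2, and 6 without 253J CM-1758 replicate 3, RT112 control replicate 1 or RT112 control replicate 2. It was 5 without TCCSUP control replicate 2 and 4 without TCCSUP CM-1758 replicate 1.

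The level in control cells differed between lines for 30 of the 39 genes, or 76.9%, where 78.8% of all tested genes and 91% of those above the median level differed. Of the 37 genes left without PSMA8 and PSMD5, 17 were highest in J82, 13 in 253J, 5 in RT112 and 2 in TCCSUP. For most of them the highest line did not differ from the next. PSMA1 (edgeR adjusted p = 0.0787) and PSMA7 (edgeR adjusted p = 0.921), both highest in J82, are examples. The J82 means take in control replicate 3, with the highest summed CPM over the 40 genes. The same count over all tested genes was not taken. The highest line stood above the lowest by a median factor of 1.69, from 1.13 for PSMC1 to 3.14 for PSMD13. PSMD13 had means of 168 CPM in J82, 81.7 CPM in 253J, 65.0 CPM in TCCSUP and 53.6 CPM in RT112, and only the step from J82 to 253J was larger than its error (adjusted p = 0.000365). PSMB6 fell in the order 253J, J82, TCCSUP and RT112, at 123, 86.9, 52.2 and 40.2 CPM, with the last step not called. PSMB7 was ordered J82, 253J, TCCSUP and RT112, at 251, 179, 114 and 86.5 CPM, again with the last step not called. PSME4 had its highest mean in RT112, 118 CPM, which did not differ from TCCSUP, 93.0 CPM, and was lower in 253J and J82, at 52.3 and 43.3 CPM, which did not differ from each other.

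Promoter sequences were found for 35 of the 40 genes, without PSMA7, PSMB1, PSMB6, PSMB7 and PSMD4. The letters CCAAT, on either strand, were in 17 of them (48.6%) and in 35.7% of all 27305 promoters of the same length, and CCGGAAG, the core of an ETS motif, in 12 (34.3%) and in 10.7%. TGACNNNGC, the core of the motif bound by NFE2L1 and NFE2L2, was in 10 (28.6%) and in 13.6%. The core of the interferon-stimulated response element (ISRE), searched as the letters GAAA, a gap of 2 free bases and GAAA again, was in 4 (11.4%), namely PSMA4, PSMB4, PSME1 and PSME2, and in 3.65%. These matches are descriptions of letters in a window and not of binding, and a promoter that holds several motifs was counted for each.

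Lists of genes that act with the proteasome were read by the same test. Of 30 genes for proteasome assembly, binding and control, 7 were lower and 9 higher in 253J, 10 and 2 in J82, 10 and 5 in RT112, and 7 and 4 in TCCSUP, with median log2 fold changes of 0.06, −0.21, −0.13 and −0.02. Lower genes were thus 23.3%, 33.3%, 33.3% and 23.3% of this list, where 22.4%, 18.5%, 20.2% and 22.1% of all tested genes were lower. Higher genes were 30%, 6.67%, 16.7% and 13.3%, where 28.8%, 24%, 27.4% and 32% were higher. Among the tested genes above the median level, 35.3%, 30.9%, 33.2% and 35.8% were lower and 29.2%, 22.4%, 22.7% and 23.7% higher. ECPAS, a proteasome adaptor, was lower in each line (−2.33, −1.55, −1.32 and −1.64). PITHD1 was higher in 253J and TCCSUP (0.99 and 0.64) and stood at 0.36 in J82 and −0.12 in RT112, and its TCCSUP call was lost without TCCSUP control replicate 1 (0.58) or CM-1758 replicate 1 (0.57). NFE2L1, which encodes a transcription factor of proteasome genes, was lower in 253J, J82 and TCCSUP (−1.76, −0.97 and −0.73) and stood at −0.31 in RT112, and its TCCSUP call was lost with library size as the scaling (−0.42).

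Of the 8 genes of the chaperonin CCT, which folds actin and tubulin, 3, 5, 6 and 2 were lower and 0, 0, 0 and 1 higher in 253J, J82, RT112 and TCCSUP. The lower shares, 37.5%, 62.5%, 75% and 25%, stand beside 35.3%, 30.9%, 33.2% and 35.8% of the tested genes above the median level. The higher shares, 0%, 0%, 0% and 12.5%, stand beside 29.2%, 22.4%, 22.7% and 23.7% of those genes. CCT5 was lower in all 4 lines (−1.12 to −0.80), and TCP1 was lower in RT112 (−0.84) and higher in TCCSUP (0.46), a call lost without any 1 of the 4 TCCSUP libraries (0.36 to 0.53). Of 10 genes of the COP9 signalosome, a complex related to the lid, 1, 2, 1 and 3 were lower and 5, 0, 0 and 0 higher. These are 10%, 20%, 10% and 30% lower and 50%, 0%, 0% and 0% higher. They are to be read against the shares given above for all tested genes and for those above the median level. COPS6 was lower in all 4 lines (−0.90 to −0.49), and COPS8 was higher in 253J (0.78). The COPS6 call was lost in 253J without control replicate 2 (−0.37) or CM-1758 replicate 3 (−0.31) and in RT112 without control replicate 1 (−0.54), control replicate 2 (−0.44) or CM-1758 replicate 1 (−0.36). It was also lost with library size as the scaling in 253J (−0.24) and RT112 (−0.34), and in RT112 with RLE scaling (−0.41), DESeq2 (−0.41) and at least 10 counts in every library (−0.36). Of 6 genes that encode ubiquitin or its activating enzymes, 0, 2, 1 and 2 were lower and 1, 0, 0 and 2 higher. These are 0%, 33.3%, 16.7% and 33.3% lower and 16.7%, 0%, 0% and 33.3% higher, against the same 2 sets of shares. RPS27A, a ubiquitin fusion gene, was lower in J82, RT112 and TCCSUP (−0.66, −0.95 and −0.56). The J82 call was lost without J82 control replicate 3 (−0.29) or CM-1758 replicate 1 (−0.39) and when J82 was fitted alone. The TCCSUP call was lost without control replicate 2 (−0.44), CM-1758 replicate 1 (−0.63) or CM-1758 replicate 2 (−0.50). It was also lost with library size as the scaling and with at least 10 counts asked of every library.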

How the data were processed

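RNA of 16 libraries was sequenced, 2 for each of 8 groups. The authors deposited 1 table of raw read counts per gene symbol, in whole numbers and not normalized. HISAT2, StringTie and the build GRCh37 are named in the submitters' processing notes, with their roles and versions not given in the sources used here, and whether the counting used strand is not given either. Genes that passed filterByExpr over the 8 groups (21297 of 35993) were scaled by TMM and fitted in 1 model with edgeR 4.0.16 in R 4.3.3 (limma 3.58.1). The quasi-likelihood test was applied to each line, to the mean of the lines, to the interaction and to the control levels, with Benjamini-Hochberg adjustment over all tested genes and a threshold of 0.05. The scripts were tested on simulated data. Levels are CPM, and a gene with at most 3 counts is treated as being at the limit of detection. Alternatives were RLE scaling, library size, DESeq2 1.42.0, other filters and thresholds, each line alone, a replicate block and leaving out each library.

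The members and lists were chosen with earlier results of these data known. Genes with values in every library were those called in the same direction in all 4 lines, the most changed called gene of each line in each direction, the 3 smallest interaction p, genes called in both directions, catalytic and activator genes, and those at the limit of detection or failing the filter. PSMA1, PSMC1 and PSMD14 were added after their values were seen. Of each list, the called genes with the largest and smallest mean change are named, and NFE2L1. A gene that this rule names is not reported here. Promoters are from RefSeq on GRCh38.p14.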

Additional observations from a re-analysis of the deposited data

Results flagged for a closer look

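For 12 of the 39 tested genes the change with CM-1758 differed between lines by the interaction test of edgeR, with p adjusted over all tested genes. PSMD9 (adjusted p = 0.000366) was called higher in 253J and lower in J82, and its change in 253J stood 1.24 (SE 0.19, log2 scale, adjusted p = 0.000204) above that in J82. PSME2 (adjusted p = 0.000482) fell in J82 and TCCSUP by 1.44 and 1.38 on the log2 scale and stood at −0.22 in 253J. PSMD5 (adjusted p = 0.0135) had 5 and 3 counts in 253J control libraries and 0 in treated ones. PSME4 (adjusted p = 0.0171) was higher in 253J than in TCCSUP in its change by 1.07 (adjusted p = 0.00643). PSME3 (adjusted p = 0.0176) was lower in J82, at −0.40. PSMC5 (adjusted p = 0.0277) ranged from −0.96 in TCCSUP to −0.27 in 253J, and PSMC1 (adjusted p = 0.0328) from −1.03 in TCCSUP to −0.24 in RT112. PSMD1 (adjusted p = 0.0336) ranged from −0.35 in 253J to 0.40 in RT112. PSMA1 (adjusted p = 0.0382) and PSMD14 (adjusted p = 0.0424) had their lowest values in 253J, −1.07 and −1.02, and their highest in J82, −0.21 and −0.15. PSMB6 (adjusted p = 0.0451) had its highest value in RT112, −0.21. PSMD6 (adjusted p = 0.0497) ranged from −0.04 in J82 to 0.55 in TCCSUP. The number of such genes fell to 4 without TCCSUP CM-1758 replicate 1.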

How the results depend on the processing

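With library size as the scaling the higher genes numbered 10 in 253J, 1 in J82, 5 in RT112, 9 in TCCSUP and 12 on average over the lines, the lower genes 6 in RT112 and 11 in TCCSUP, and the medians were 0.10 in 253J, −0.090 in RT112 and −0.040 in TCCSUP. With at least 10 counts in every library the higher genes numbered 7 in 253J, 1 in J82 and 5 in RT112, the lower genes 6 in RT112 and 11 in TCCSUP, and the medians in the order TCCSUP, RT112, J82 and 253J were −0.20, −0.11, −0.18 and −0.087. RLE scaling and DESeq2 gave 1 higher gene in J82, DESeq2 gave 5 in RT112, and J82 fitted alone gave 9 lower genes. At an adjusted p under 0.01 the higher genes numbered 0 in RT112, 2 in TCCSUP and 3 on average, the lower genes 5 in RT112, and 2 genes differed between lines. With a log2 fold change past 2 asked as well, the higher genes numbered 0 in 253J, RT112 and TCCSUP, and the lower genes 1 in 253J and 0 in J82, RT112 and TCCSUP. Leaving out 1 library at a time gave 2 to 6 higher and 9 to 14 lower genes in 253J, 0 to 1 and 12 to 22 in J82, 0 to 3 and 5 to 13 in RT112, and 0 to 4 and 11 to 20 in TCCSUP. The medians then ran from −0.33 to 0.0020 in 253J, −0.47 to −0.059 in J82, −0.31 to −0.17 in RT112 and −0.42 to −0.29 in TCCSUP. Between 4 and 16 genes differed in their change between lines, 26 to 33 in control level, and 3 to 6 were higher and 19 to 23 lower on average. The cause of these shifts was not tested. The replicate numbers of the labels were not taken to pair libraries. Same-numbered libraries had correlations of 0.053, 0.214, 0.042 and 0.017 in 253J, J82, RT112 and TCCSUP. Whether they came from the same experiment is not given in the labels, and correlations of this size cannot decide it. The readings by overlap of libraries take no account of such pairs. The fit with a replicate block gave 2 higher and 19 lower genes in J82, 3 and 14 in RT112, and 5 and 20 in TCCSUP. In 253J only replicate number 3 occurs in both arms. The block there compares control replicate 3 with CM-1758 replicate 3 alone, with a median of −0.057, and no count is given. Under the block the 253J calls of PSMD5 and PSMC1 were not made, and neither were the differences between lines of PSMD1 and PSMD5. In all of these 253J enters through its replicate 3 libraries alone. Of 4887 values of single genes under an alternative, 4467 kept their side of the threshold and direction, 162 lost a call, 113 gained one, 145 changed sign with no call on either side and 0 reversed. With 2 libraries a group, the spread rests on 8 residual degrees of freedom shared by all groups.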
